A study of Mus musculus with 12 samples.

Results

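Heterotrimeric G protein subunit genes and the genes of the regulators of G protein signalling (RGS) were followed in frontal cortex of mice with reduced Grin1, with and without Cre. Members were taken by symbol from the authors' 3 gene tables: the alpha subunit genes (Gna symbols), Gnb1 to Gnb5, the gamma subunit genes (Gng symbols) and the numbered Rgs genes, leaving out Rgs2, Rgs5 and Rgs9. A member entered where the authors' program tested it. This gave 41 genes, of which 12 encode alpha, 4 beta and 11 gamma subunits and 14 encode RGS proteins. They made up 44 of 18417 tested gene models for GluN1 against WT, 45 of 18430 for GluN1Cre against GluN1 and 44 of 18429 for GluN1Cre against WT. A further 9 genes of the same names were listed but not tested: Gna14, Gnat1, Gnat2, Gnat3, Gnb3, Gngt1, Rgs1, Rgs18 and Rgs22, all at 0.178 FPKM or less in every group, with Gnat3 and Gngt1 listed at 0. FPKM is the number of sequenced fragments scaled to transcript length and library size, so levels can be set roughly side by side between genes. The transcripts are those of the authors' assembled models, so a level also depends on the assembly.

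The series title speaks of Grin1 knockdown mice (labelled GluN1), Grin1 Cre rescue mice (labelled GluN1Cre) and wild-type mice (WT), with 4 males in each group. All were F1 hybrids of C57Bl/6 and 129/SvlmJ, aged 14 weeks, and all 3 groups received tamoxifen from 10 weeks of age for 2 weeks, with 6 mg given by gavage and about 14 mg eaten in chow. By the group names GluN1Cre was the only group with Cre, so what Cre did on its own and what restored Grin1 did cannot be told apart. The labels used here give neither the knockdown allele nor the promoter that drives Cre, and polyadenylated RNA was sequenced.

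A heterotrimeric G protein consists of an alpha subunit, which binds GTP, and a beta-gamma pair that is released when a receptor activates the alpha subunit. The alpha families differ in what they act on: Gs stimulates adenylyl cyclase, Gi inhibits it and Gq activates phospholipase C beta, while free beta-gamma pairs open potassium channels and inhibit calcium channels. RGS proteins speed the hydrolysis of GTP by alpha subunits, which ends the signal. In cortex these proteins carry the signals of metabotropic glutamate, dopamine, serotonin, muscarinic, adenosine, opioid and GABA-B receptors.

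Most of the G protein and RGS genes were at similar levels in all groups, and the differences that passed the authors' test lay in the gamma subunit genes Gng4 and Gng7 and in Rgs4. A model was called where the authors' Cuffdiff test gave p under 0.05 and q (the p-value adjusted over all models of the table) under 0.10, the threshold of the design text. For GluN1 against WT, 1 of the 44 models was called, Gng4, which was higher, beside 2.52% of all models called (1.66% higher and 0.858% lower). For GluN1Cre against GluN1, 1 of the 45 was called, Gng4 again, which was lower, beside 0.689% of all models (0.13% higher and 0.559% lower). For GluN1Cre against WT, 3 of the 44 were called, with Gng4 and Rgs4 higher and Gng7 lower, beside 0.841% of all models (0.364% higher and 0.478% lower). The share called was thus near the background for GluN1 against WT. At an unadjusted p under 0.05 the member counts were 6, 1 and 3 in the same order, beside 7.91%, 4.19% and 4.32% of all models. At q under 0.05 they were 1, 1 and 0, beside 1.94%, 0.559% and 0.662%; the 0 is by Cuffdiff, with 3 at an unadjusted p under 0.05. The 3 comparisons share groups, so their values are not independent of each other.

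Among the 38 member models whose mean FPKM was 1 or more, the median log2 fold was -0.06 for GluN1 over WT, where it was -0.01 over all 13920 such models. Of these members 30 had folds below 0 and 8 above, and 78.9% lay below 0 where 53.2% of all models did. Over WT, GluN1Cre had a median of -0.04 among the members and -0.01 among all 13835 models, again with 30 members below 0, or 78.9%, where 55.8% of all models lay below 0. Over GluN1, GluN1Cre had a median of 0.01 among the members and -0.00 among all 13893 models, with 15 members below 0, or 39.5%, where 52.5% of all models lay below 0. Over all tested member models the medians were -0.07, 0.02 and -0.06 for GluN1 over WT, GluN1Cre over GluN1 and GluN1Cre over WT. The sizes were small: 5, 1 and 4 of the 38 member models lay beyond 0.2 on the log2 scale for GluN1 over WT, GluN1Cre over GluN1 and GluN1Cre over WT. Over all models the shares beyond 0.2 were 12.9%, 8.05% and 8.77% in the same order.

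**Figure D1:**
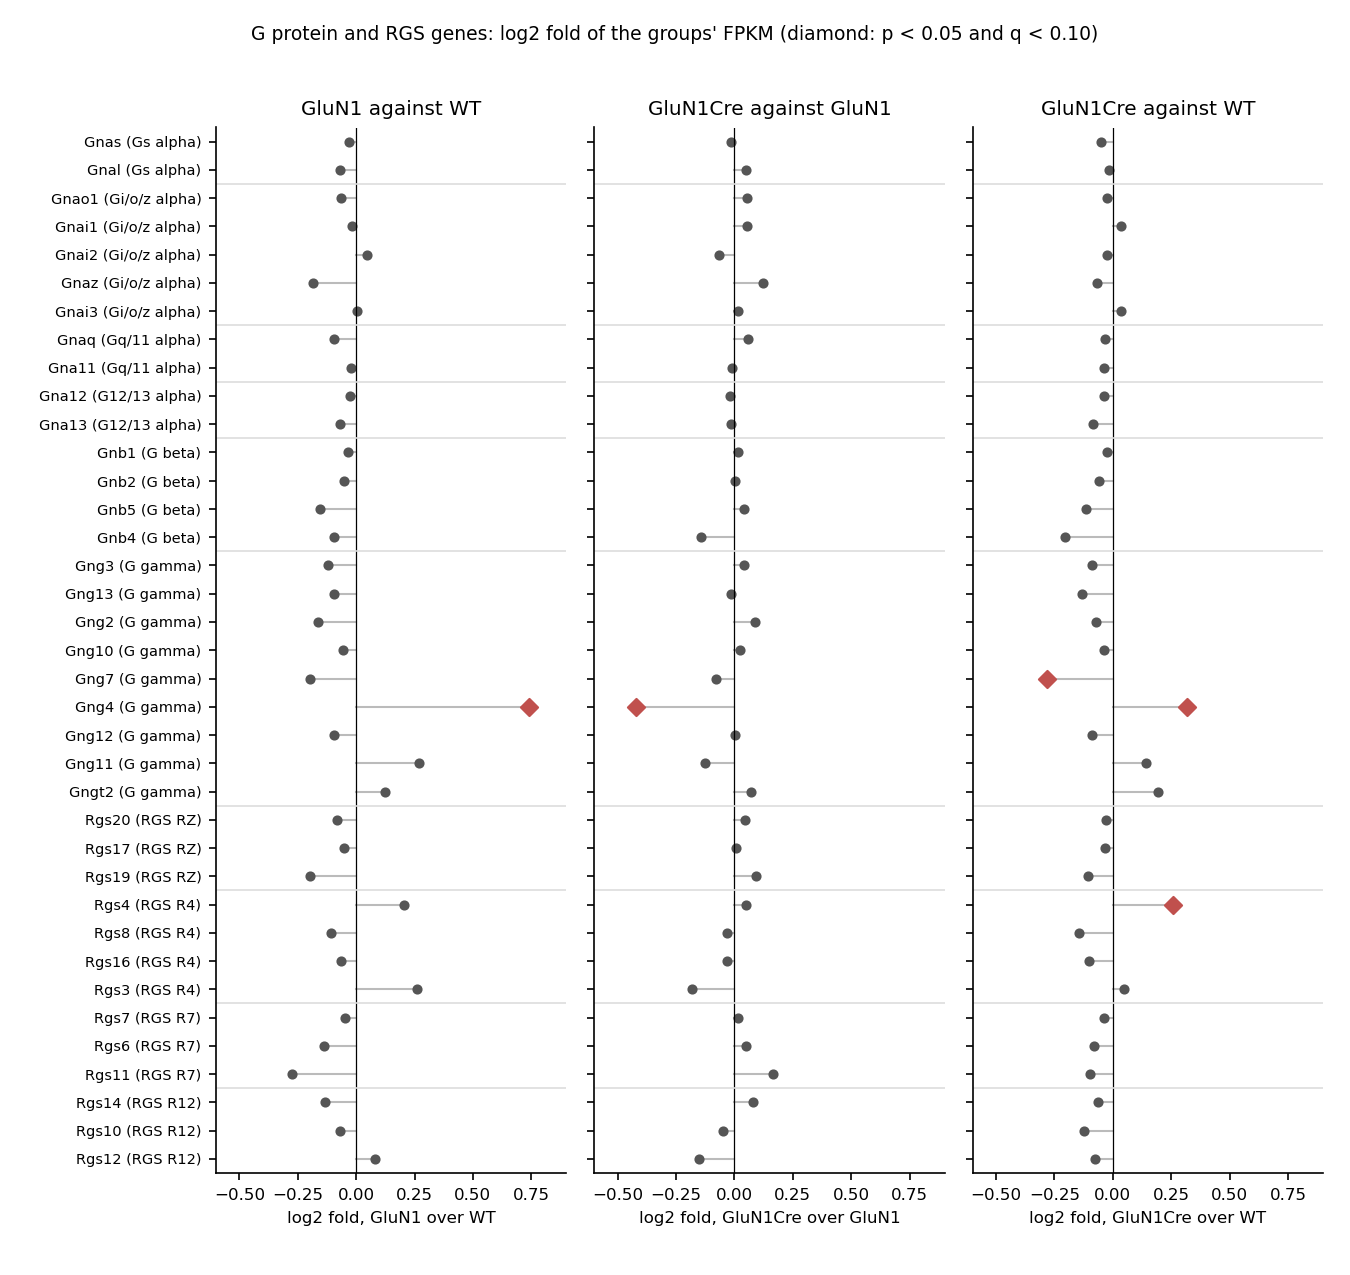
Log2 fold of the FPKM (x axis) for the 37 member genes with a mean FPKM of at least 1, 1 model per gene, ordered by role and level; each panel is 1 comparison, and red diamonds mark models called at p under 0.05 and q under 0.10. Filled diamonds show Gng4 at 0.74, -0.42 and 0.32, and Rgs4 and Gng7 are called in the right panel at 0.26 and -0.28.

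The targeted gene and the tissue were checked first. Grin1, which encodes the subunit that all NMDA-type glutamate receptors need, was at 56.7 FPKM in GluN1 and 138 FPKM in WT cortex, at 86.7 FPKM in GluN1Cre and 65.7 FPKM in GluN1, and at 78.0 FPKM in GluN1Cre and 138 FPKM in WT. The GluN1Cre level was thus 56.5% of that in WT. For the same animals the Grin1 level differed between tables, 56.7 and 65.7 FPKM in GluN1 and 86.7 and 78.0 FPKM in GluN1Cre. All 8 listed markers of cortical excitatory neurons were measured, and their summed level in GluN1 cortex was 90.2% of that in WT. Markers of neighbouring regions were measured too. The 7 olfactory bulb marker models summed to 82.6 FPKM in GluN1 and 35.2 FPKM in WT, and 6 of them were called higher. The 14 striatal medium spiny neuron marker models summed to 217 FPKM in GluN1 and 252 FPKM in WT, and 6 were called lower. No model of either list lay under 0.1 FPKM in both groups. In tissue RNA, fewer cells of a type and less RNA per cell cannot be told apart.

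Among the 11 gamma subunit genes, Gng4 was the one with the larger differences. In the table of GluN1 against WT it was at 36.8 FPKM in GluN1 cortex and 22.0 FPKM in WT cortex, or 0.74 on the log2 scale (p = 5e-05, q = 0.00456 in the authors' deposited table). In the table of GluN1Cre against GluN1 it was at 28.3 FPKM in GluN1Cre and 38.0 FPKM in GluN1, or -0.42 on the log2 scale (q = 0.0118 in the authors' deposited table). In the table of GluN1Cre against WT it was at 27.0 FPKM in GluN1Cre and 21.7 FPKM in WT, or 0.32 on the log2 scale (q = 0.0516 in the authors' deposited table). The level in GluN1Cre cortex thus lay between that of GluN1 and that of WT, and differed from each by the authors' test. The fold of GluN1 over WT was exceeded in size by 120 of the 13920 models that average 1 FPKM or more, or 0.862%. Gng4 encodes a gamma subunit found mainly in the nervous system. Its p of 5e-05 in the first table is the smallest any model of that table holds.

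**Figure D2:**
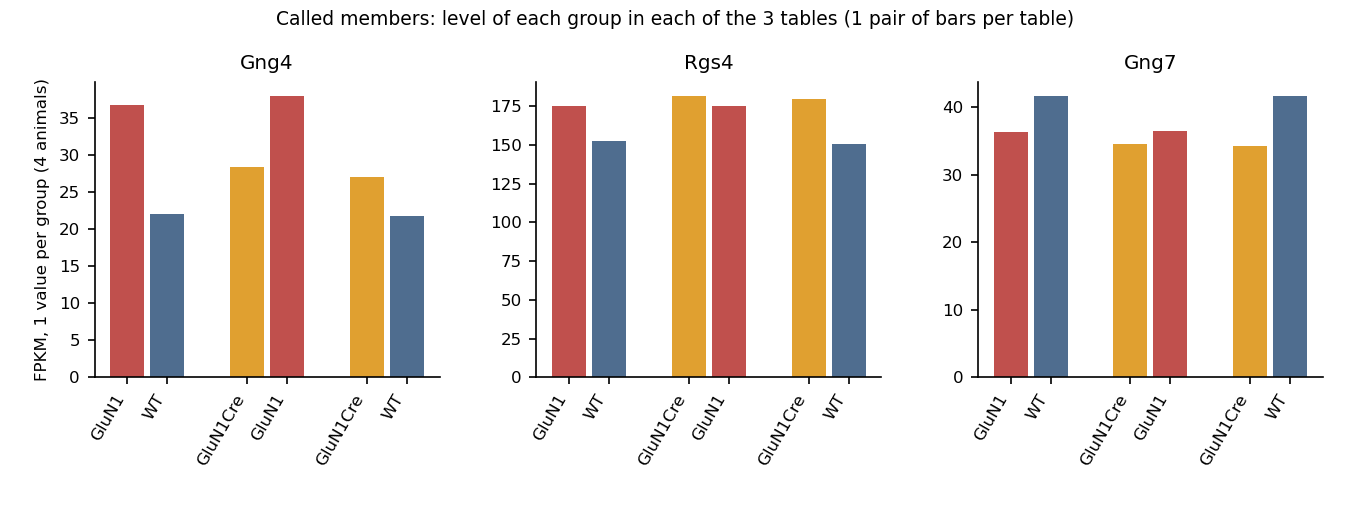
FPKM of Gng4, Rgs4 and Gng7 (y axis, from 0), 1 bar per group and 1 pair of bars per table, in the order GluN1 and WT, GluN1Cre and GluN1, GluN1Cre and WT; each bar is the authors' single value for 4 animals and has no error. Gng4 is at 36.8 FPKM in GluN1 and 22.0 FPKM in WT, while Rgs4 is near 180 FPKM in GluN1Cre and near 150 FPKM in WT.

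The olfactory bulb markers moved with Gng4 in all 3 comparisons. For GluN1 over WT, the bulb markers Cdhr1, Th and Eomes had log2 folds of 1.04, 1.47 and 2.19, and all 7 bulb models had folds above 0. For GluN1Cre over GluN1, 6 of 7 bulb models were called lower, none higher, and their summed level was 52.6 FPKM in GluN1Cre and 82.8 FPKM in GluN1. For GluN1Cre over WT, 5 of 6 were called higher, and they summed to 52.0 FPKM in GluN1Cre and 35.4 FPKM in WT. Of the 6 interneuron markers, 3 were called higher in GluN1 than in WT: Sst, at 452 FPKM in GluN1 and 342 FPKM in WT, Gad1 and Gad2. The other 3 were not called, with log2 folds of -0.03 for Vip, -0.05 for Pvalb and 0.07 for Slc32a1. The 6 summed to 754 FPKM in GluN1 and 606 FPKM in WT, and most of that difference lay in Sst. None of the 6 was called in either of the other comparisons by Cuffdiff, with 1 at an unadjusted p under 0.05 in each. The part of bulb tissue or of interneurons in the Gng4 difference was not tested.

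Gng7 lay on the other side. It encodes a gamma subunit that pairs with the alpha subunit Golf in striatal neurons. It was at 34.2 FPKM in GluN1Cre and 41.6 FPKM in WT, a log2 fold of -0.28 (p = 0.00055, q = 0.0704 in the authors' deposited table). In the table of GluN1 against WT it was at 36.3 FPKM in GluN1 and 41.7 FPKM in WT, a log2 fold of -0.20 that was not called (q = 0.296 in the authors' deposited table). Between the groups with reduced Grin1 it was at 34.5 FPKM in GluN1Cre and 36.4 FPKM in GluN1, not called. Striatal markers moved with Gng7: for GluN1Cre over WT, 7 of 12 marker models were called lower and none higher, all 12 had folds below 0, and they summed to 187 FPKM in GluN1Cre and 244 FPKM in WT. Drd2 and Adora2a, receptors of the indirect striatal pathway, had log2 folds of -1.18 and -0.91 there. The part of striatal tissue in the Gng7 difference was not tested. Gnal, which encodes Golf itself, was at 44.4 FPKM in GluN1Cre and 44.8 FPKM in WT, a log2 fold of -0.02 that was not called.

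**Figure D3:**
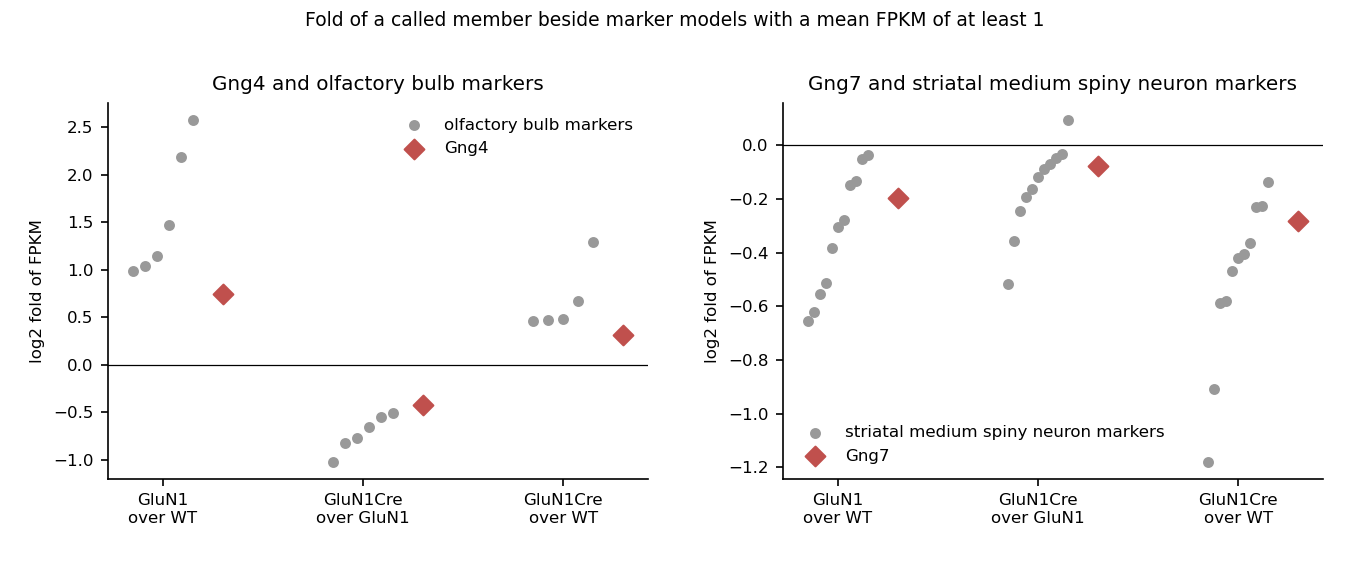
Log2 folds (y axis) of Gng4 beside the olfactory bulb markers (left) and of Gng7 beside the striatal medium spiny neuron markers (right) in the 3 comparisons (x axis); grey points are marker models whose mean FPKM is 1 or more, spread sideways by rank, and red diamonds are the member. Gng4 has the sign of every bulb marker shown in each comparison but a smaller fold, and Gng7 at -0.20, -0.08 and -0.28 lies within the range of the striatal markers.

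None of the other 9 gamma genes passed the test in any comparison. Gng3, a brain-enriched gamma gene, was the most abundant at 94.7 FPKM in GluN1 and 103 FPKM in WT (log2 fold -0.12). Gng13, known from taste and retinal cells, followed at 58.2 FPKM in GluN1 and 62.1 FPKM in WT. Gng2, a widely used gamma subunit, was at 46.0 FPKM in GluN1 and 51.4 FPKM in WT, a log2 fold of -0.16 with an unadjusted p of 0.0359 and q = 0.538 in the authors' deposited table. By level Gng4 ranked 5 of the 11 in GluN1 and 6 in WT, and Gng7 ranked 6 in GluN1 and 5 in WT. Gng4 made up 10.7% of the summed gamma FPKM in GluN1 and 6.25% in WT, and 8.10% in GluN1Cre and 6.18% in WT in the table of those groups. The sum over all gamma genes was 343 FPKM in GluN1 and 352 FPKM in WT. Gng5 and Gng8 lay under 1 FPKM in every group. For GluN1 against WT the authors' Gng5 model spans 146499835 to 146521533 on chromosome 3, while the GENCODE gene ends at 146505572. The part of the assembly in the low Gng5 level was not tested. Gng11 was at 7.61 FPKM in GluN1 and 6.32 FPKM in WT (log2 fold 0.27, unadjusted p = 0.0641 in the authors' deposited table). Beside it, all 8 endothelial marker models had folds above 0, with Slco1a4 in more than 1 of them. None of the 8 was called by Cuffdiff, with 2 at an unadjusted p under 0.05. The part of blood vessel cells in the Gng11 value was not tested.

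**Figure D4:**
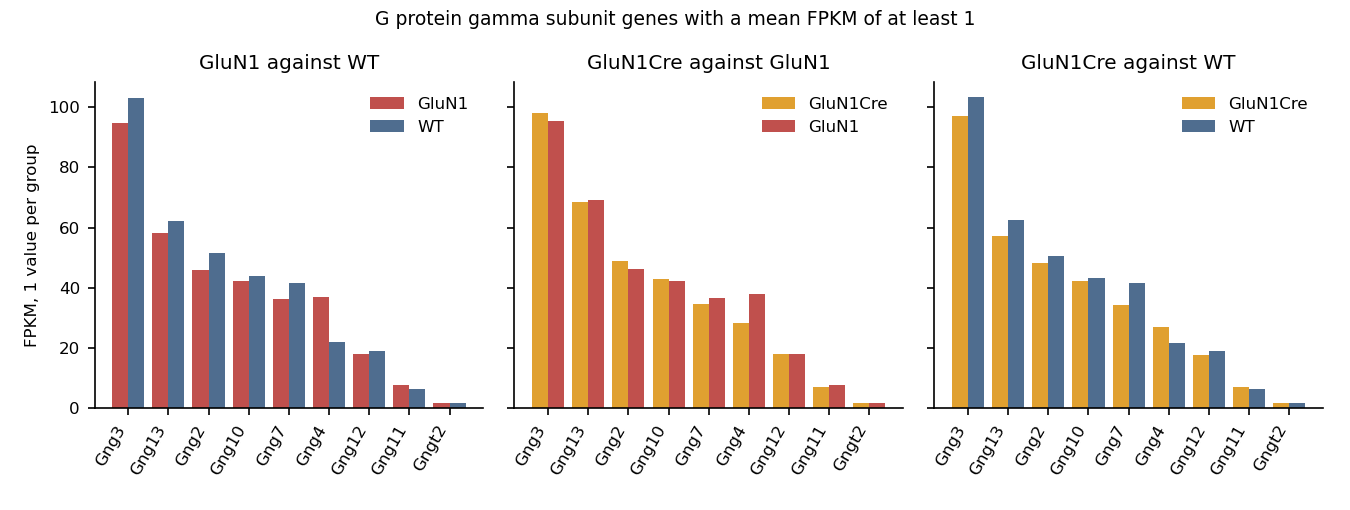
FPKM (y axis, from 0) of the 9 gamma subunit genes with a mean of at least 1, in descending order, with 1 panel per comparison and 1 bar per group (the authors' single value for 4 animals). Gng3 leads in every panel near 100 FPKM, and the GluN1 bar of Gng4 stands above its WT bar, 36.8 against 22.0 FPKM.

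Among the 14 RGS genes followed here, Rgs4 was the most abundant and the one that passed. It encodes a small RGS protein of the R4 class that acts on Gi/o and Gq alpha subunits and is strongly expressed in cortical neurons. In the table of GluN1Cre against WT it was at 180 FPKM in GluN1Cre and 150 FPKM in WT, a log2 fold of 0.26 (p = 0.00055, q = 0.0704 in the authors' deposited table). It was at 175 FPKM in GluN1 and 152 FPKM in WT, a log2 fold of 0.20 that missed the call (p = 0.0077, q = 0.219 in the authors' deposited table). Between the groups with reduced Grin1 it was at 182 FPKM in GluN1Cre and 175 FPKM in GluN1, a log2 fold of 0.05. The fold of GluN1Cre over WT was thus called and that of GluN1 over WT was not, while the direct comparison of GluN1Cre with GluN1 was not called (p = 0.503 in the authors' deposited table). Rgs4 made up 51.8% of the summed FPKM of these RGS genes in GluN1 and 46.9% in WT, and 52.5% in GluN1Cre and 46.8% in WT. Rgs2, Rgs5 and Rgs9 were left out of the sum.

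The promoters of the 3 called genes are shown because these are the members whose RNA differed. Each is the RefSeq window on GRCm38.p6 from 250 bases before to 50 bases after the start site that lies nearest the 5′ end of the authors' model, written 5′ to 3′ on the gene's strand. Capitals mark letters of the motifs searched, on both strands. The full cAMP response element was spelled TGACGTCA and the EGR site GCGTGGGCG. The core of the response element, which the full element contains, was spelled TGACG. The TATA box was searched as TATAAA.
Gng4, chr13:13783809-13784108, plus strand: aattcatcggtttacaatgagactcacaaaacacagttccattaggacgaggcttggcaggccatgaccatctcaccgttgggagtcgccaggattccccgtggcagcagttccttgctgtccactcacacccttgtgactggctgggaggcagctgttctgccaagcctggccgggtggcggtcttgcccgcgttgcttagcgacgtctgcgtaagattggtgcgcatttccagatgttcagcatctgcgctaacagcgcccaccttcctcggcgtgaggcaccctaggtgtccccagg
Gng7, chr10:81014876-81015175, minus strand: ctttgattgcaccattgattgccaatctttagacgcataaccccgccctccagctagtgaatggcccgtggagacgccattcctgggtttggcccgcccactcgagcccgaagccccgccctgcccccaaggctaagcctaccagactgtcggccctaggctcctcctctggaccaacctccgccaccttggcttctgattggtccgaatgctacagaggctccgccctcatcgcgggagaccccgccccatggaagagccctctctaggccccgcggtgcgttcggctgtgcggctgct
Rgs4, chr1:169747593-169747892, minus strand: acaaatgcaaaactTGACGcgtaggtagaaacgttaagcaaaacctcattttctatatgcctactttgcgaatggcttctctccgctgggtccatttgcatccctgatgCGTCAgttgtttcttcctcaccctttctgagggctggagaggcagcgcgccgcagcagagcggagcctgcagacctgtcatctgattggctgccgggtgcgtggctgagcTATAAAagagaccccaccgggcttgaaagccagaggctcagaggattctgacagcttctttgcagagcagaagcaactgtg
The Gng4 and Gng7 windows hold none of these letters. The Rgs4 window holds 2 response element cores, at -236 to -232 and at -141 to -137 with the start site as 0, and a TATA box at -31 to -26. Of all 32851 RefSeq windows of this length, 20.8% hold the core, 1.79% the full element, 0.612% the EGR site and 13.6% the TATA box. Among the 45 windows of the 32 member genes that matched, 11 hold the core, 0 the full element, 1 the EGR site and 7 the TATA box. The windows differ in base composition, with a GC content of 58.3% for Gng4, 63.7% for Gng7 and 53.0% for Rgs4, where the median window has 52.7%. On GRCm38 GENCODE M21 places Gng4 on chromosome 13 from 13784059 to 13827896, Gng7 on chromosome 10 from 80948624 to 81014945 and Rgs4 on chromosome 1 from 169741477 to 169747642, all 3 protein-coding.

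The other R4 genes followed here did not pass in any comparison. Rgs3 had a log2 fold of 0.26 for GluN1 over WT, with 3.56 FPKM in GluN1 and 2.97 FPKM in WT (unadjusted p = 0.0428, q = 0.583 in the authors' deposited table), and of -0.18 for GluN1Cre over GluN1. Rgs8, which is abundant in striatal and Purkinje neurons, was at 15.5 FPKM in GluN1Cre and 17.1 FPKM in WT, a log2 fold of -0.15. Rgs16, an R4 member at low level here, was at 3.60 FPKM in GluN1 and 3.76 FPKM in WT. Rgs13 was at 0.239 FPKM in GluN1 and 0.365 FPKM in WT. Fold changes of the R4 genes followed here at a mean FPKM of at least 1 ran between -0.11 and 0.26 for GluN1 over WT.

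R7 proteins bind the beta subunit Gnb5 in place of a gamma subunit, so they are given with it. Rgs7, the most abundant of the R7 genes followed here, was at 33.5 FPKM in GluN1 and 34.7 FPKM in WT. Rgs11 had the largest fold of these R7 genes for GluN1 over WT, 8.54 FPKM in GluN1 and 10.3 FPKM in WT (log2 fold -0.28, unadjusted p = 0.0668 in the authors' deposited table). Rgs6 was at 11.2 FPKM in GluN1 and 12.3 FPKM in WT. Gnb5 was at 61.8 FPKM in GluN1 and 68.8 FPKM in WT, a log2 fold of -0.15 with an unadjusted p of 0.0539 in the authors' deposited table. All 4 genes had folds below 0 for GluN1 over WT and for GluN1Cre over WT and folds above 0 for GluN1Cre over GluN1, and none was called by Cuffdiff or held an unadjusted p under 0.05. For GluN1Cre over GluN1 the log2 folds were 0.16 for Rgs11 and 0.04 for Gnb5.

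The R12 and RZ classes were as even. Rgs14, an R12 protein that also binds inactive Gi alpha subunits, was at 21.3 FPKM in GluN1 and 23.3 FPKM in WT. Rgs10, known from microglia as well as neurons, was at 15.2 FPKM in GluN1Cre and 16.6 FPKM in WT (log2 fold -0.12), beside microglia markers of which none of 8 was called by Cuffdiff or held an unadjusted p under 0.05 in any comparison. Rgs12 was at 11.3 FPKM in GluN1Cre and 12.6 FPKM in GluN1, a log2 fold of -0.15 (unadjusted p = 0.0788 in the authors' deposited table). In the RZ class, Rgs19 was at 8.06 FPKM in GluN1 and 9.24 FPKM in WT (log2 fold -0.20), Rgs20 at 15.2 FPKM in GluN1 and 16.0 FPKM in WT, and Rgs17 at 13.2 FPKM in GluN1 and 13.7 FPKM in WT. The smallest unadjusted p of any RZ gene in any table was 0.33, in the authors' deposited table of GluN1 against WT.

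None of the 12 alpha subunit genes passed Cuffdiff's test in any comparison, and 1, Gnaz, held an unadjusted p under 0.05. Gnas, which encodes the stimulatory subunit Gs alpha from an imprinted locus, was the most abundant member of all at 682 FPKM in GluN1 and 696 FPKM in WT, at 674 FPKM in GluN1Cre and 682 FPKM in GluN1, and at 668 FPKM in GluN1Cre and 692 FPKM in WT. It made up 53.9% of the summed alpha FPKM in GluN1 and 53.5% in WT. The FPKM of a gene model covers all its transcripts, and those of the Gnas locus were not separated here. Gnal, the subunit of olfactory and striatal neurons, was at 43.7 FPKM in GluN1 and 45.8 FPKM in WT, a log2 fold of -0.07. Of the inhibitory family, Gnao1, which encodes the Go subunit that is abundant in brain, was at 226 FPKM in GluN1 and 237 FPKM in WT (log2 fold -0.06), Gnai1 at 76.7 FPKM in GluN1 and 77.7 FPKM in WT, and Gnai2 at 62.7 FPKM in GluN1 and 60.6 FPKM in WT. Gnaz, a member of the Gi family that resists pertussis toxin, had the largest fold of the family for GluN1 over WT, with 24.5 FPKM in GluN1 and 27.8 FPKM in WT (log2 fold -0.19, unadjusted p = 0.0215, q = 0.403 in the authors' deposited table). For GluN1Cre over GluN1 Gnaz had a log2 fold of 0.12, with 26.8 FPKM in GluN1Cre and 24.6 FPKM in GluN1.

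In the Gq family Gnaq was at 59.6 FPKM in GluN1 and 63.6 FPKM in WT, a log2 fold of -0.09, and Gna11 at 39.1 FPKM in GluN1 and 39.8 FPKM in WT. Both encode activators of phospholipase C beta. Of the G12/13 pair, Gna12 was at 18.4 FPKM in GluN1 and 18.7 FPKM in WT and Gna13 at 11.8 FPKM in GluN1 and 12.4 FPKM in WT. Gna15 lay under 1 FPKM throughout. Among the beta subunit genes Gnb1 was at 260 FPKM in GluN1 and 267 FPKM in WT, Gnb2 at 148 FPKM in GluN1 and 153 FPKM in WT, and Gnb4 at 9.94 FPKM in GluN1Cre and 11.5 FPKM in WT (log2 fold -0.21, unadjusted p = 0.335 in the authors' deposited table). The sums over families were close between groups: GluN1 had 97.4% of the WT sum for alpha, 96.1% for beta, 97.3% for gamma and 104% for RGS genes. GluN1Cre had 97.5%, 96.5%, 95.0% and 107% of the WT sums in the same order. The RGS sum was 338 FPKM in GluN1 and 325 FPKM in WT, and Rgs4 held 175 and 152 FPKM of it. In the other table it was 343 FPKM in GluN1Cre and 322 FPKM in WT, and Rgs4 held 180 and 150 FPKM. Rgs4 was thus higher by more FPKM than the RGS sum was. In the gamma sum of 343 FPKM in GluN1 and 352 FPKM in WT, Gng4 held 36.8 and 22.0 FPKM.

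Effectors and partners of these proteins were counted from 5 lists. Of 35 tested models for GluN1 against WT, 1 was called higher and 34 were not called, beside 2.52% of all models called and 1.66% called higher, so the count is near the background. The gene was Adcy8, a calcium-stimulated adenylyl cyclase, at 6.69 FPKM in GluN1 and 4.94 FPKM in WT (0.44 on the log2 scale, with q = 0.00456 in the authors' deposited table). Adcy8 was at 6.71 FPKM in GluN1Cre and 7.84 FPKM in GluN1 (log2 fold -0.22, unadjusted p = 0.04 in the authors' deposited table). It was at 5.79 FPKM in GluN1Cre and 4.89 FPKM in WT (log2 fold 0.24, unadjusted p = 0.0159 in the authors' deposited table). Neither was called. For the same animals its level differed between tables, 6.69 and 7.84 FPKM in GluN1 and 6.71 and 5.79 FPKM in GluN1Cre. By Cuffdiff 0 of 36 models were called for GluN1Cre against GluN1 and 0 of 36 for GluN1Cre against WT, with 1 at an unadjusted p under 0.05 in each, beside 0.689% and 0.841% of all models called. By list, the tested models for GluN1 against WT were 10 adenylyl cyclases (median log2 fold -0.05), 4 phospholipase C beta models (-0.00), 5 G protein-gated potassium channel models (-0.03), 7 receptor kinases and arrestins (-0.03) and 9 chaperones, anchors and GoLoco regulators (-0.05). Besides Adcy8, an unadjusted p under 0.05 was held in that table by Kcnj9, a subunit of G protein-gated potassium channels, with 35.8 FPKM in GluN1 and 41.4 FPKM in WT, and by the merged model Gpsm3,Notch4.

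The same animals appear in 2 tables each, which shows how far separate assembly and scaling alone moved a member's level. Over the 114 pairs of levels of 1 group with a mean FPKM of at least 1, the median absolute difference was 0.01 on the log2 scale, and 97 pairs lay within 0.05. Another 7 pairs differed by more than 0.1. Gna12 was at 18.4 FPKM in GluN1 in the table against WT and at 23.8 FPKM in GluN1 in the table with GluN1Cre, and WT differed likewise between its tables, 18.7 FPKM and 23.7 FPKM. Gng13 was at 68.6 FPKM in GluN1Cre in the table against GluN1 and at 57.0 FPKM in GluN1Cre in the table against WT. Gnb4 differed in GluN1Cre and in WT, and Rgs6 and Gng13 in GluN1. For Gng4 the differences were 0.05 in GluN1, 0.07 in GluN1Cre and 0.02 in WT, all smaller than its folds between groups. For Rgs4 and Gng7 they were 0.02 or less.

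**Figure D5:**
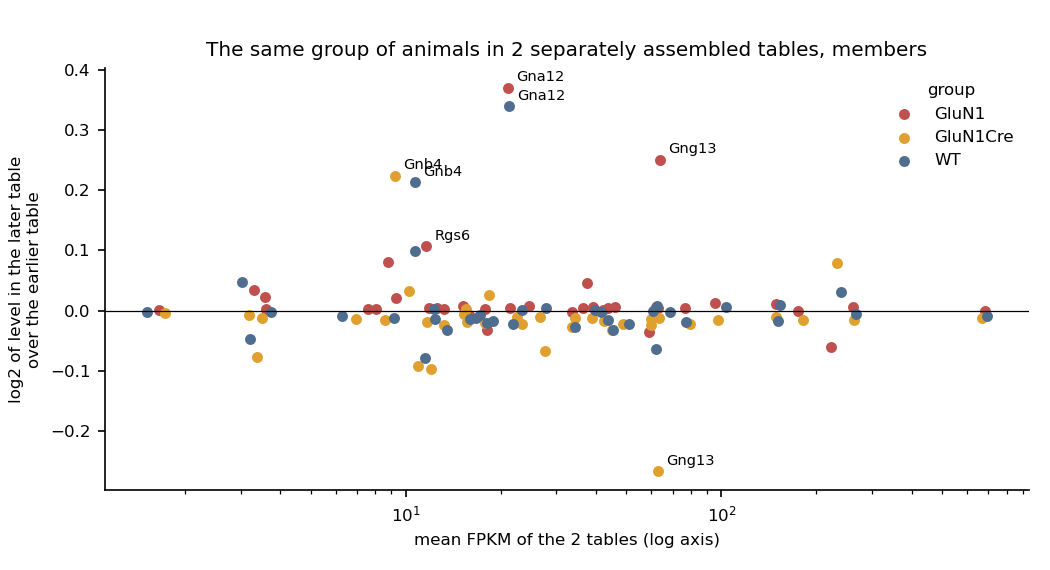
Difference between tables for the same group of animals (y axis, log2 of the level in the second table over the first, with tables in the order GluN1 against WT, GluN1Cre against GluN1, GluN1Cre against WT) by mean FPKM (x axis, log scale); each point is 1 member model in 1 group, and models beyond 0.1 are named. Most points lie near 0, while Gna12, Gng13 and Gnb4 reach 0.21 to 0.37 in size.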

How the data were processed

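Frontal cortex RNA of 12 mice was sequenced, and the authors deposited 3 gene tables, each for a pair of groups. The authors processed the reads with Galaxy, according to the design text of the series. Cuffdiff 2.2.1.3, Cufflinks 2.2.1.0, TopHat2 2.1.0, TopHat and FastQC 0.65 are listed among the submitters' processing notes, which give the builds as GRCm38 and mm10. Per the file headers, the authors' tables give 1 FPKM per group (estimated by Cuffdiff over 4 animals). Per the file headers, they also hold the authors' p-value and q-value for each assembled gene model. The tables were assembled and scaled separately, so every test stays within 1 table. No value per animal or read total was used, so depth and the spread between animals are unknown and no error is printed beside an FPKM.

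Log2 folds were computed here from the deposited FPKM with no pseudocount (Python 3.11.15, pandas 2.3.3, numpy 2.4.6). The call is that of the design text (p under 0.05 and q under 0.10); recomputing Benjamini-Hochberg values over the tested models gave the deposited q to within 5.14e-07. The members, role classes, pathway lists and marker lists were chosen with earlier results of these data known. Members are given with values where they were called in any table, were among the 12 highest by FPKM, or were the highest or the most changed of their class at a mean FPKM of at least 1; any other was named after its values were seen. Promoter windows are those of RefSeq on GRCm38.p6, and gene spans are those of GENCODE M21 on GRCm38. The adjustment was tested on simulated p-values, the member rule on example symbols, and the motif search on a random sequence and on fixed sequences. Other call thresholds, an FPKM filter, pseudocounts, centred folds and other handling of multiple models were tried as alternatives. Of the pathway lists, 1 is not reported here.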

Additional observations from a re-analysis of the deposited data

How the results depend on the processing

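The count of called members for GluN1 against WT was 1 at q under 0.05, with a mean FPKM of at least 1, with q recomputed over such models, with single-symbol models and with 1 model per gene, and 6 at an unadjusted p under 0.05 (Gng4, Rgs4, Gng7, Gnaz, Gng2 and Rgs3), beside 7.91% of all models. Over all models the share was 1.94% at q under 0.05 and 2.67% with a mean FPKM of at least 1. For GluN1Cre against WT the count was 3 in all of these alternatives except q under 0.05, where it was 0: the q of Gng4, Rgs4 and Gng7 lies between 0.05 and 0.10. Over all models the shares there were 4.32% at an unadjusted p under 0.05, 0.662% at q under 0.05 and 0.969% with a mean FPKM of at least 1. For GluN1Cre against GluN1 the count was 1 in all 6 alternatives. The shares over all models in the same order were 4.19%, 0.559% and 0.806%. In every alternative run, median folds of the members moved by less than 0.0134, the median log2 difference between tables for the same animals. No paired analysis was possible because the tables hold 1 value per group, and leaving out single animals was not possible for the same reason. Depth per animal is unknown, so the limit it sets on low members such as Rgs13, Gng8 and Gna15 cannot be given.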

Other observations

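Some member genes were assembled into more than 1 model. Gnas had 2 further tested models in every table, each under 1 FPKM. Gnao1 had a second model at 3.26 FPKM in GluN1 and 3.26 FPKM in WT, beside 226 FPKM in GluN1 and 237 FPKM in WT for its leading model. Rgs6 had a second tested model for GluN1Cre against GluN1, at 0.891 FPKM in GluN1Cre and 0.778 FPKM in GluN1. Gnai3 was assembled together with Gpr61, a receptor gene, and that merged model was at 18.3 FPKM in GluN1 and 18.3 FPKM in WT. None of these models was called by Cuffdiff or held an unadjusted p under 0.05.

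Of the remaining marker lists, astrocyte markers had 2 of 6 called higher in GluN1 than in WT, 1 of 6 lower in GluN1Cre than in GluN1 and 1 of 6 higher in GluN1Cre than in WT. Pericyte and smooth muscle markers had 1 of 8 called higher in GluN1 than in WT and, by Cuffdiff, 0 of 8 in the other comparisons, with 1 at an unadjusted p under 0.05 in each. Cortical excitatory neuron markers had 1 of 8 called lower in GluN1 than in WT. All 8 had folds below 0 in that comparison, and 3 held an unadjusted p under 0.05. For GluN1Cre over GluN1 all 8 had folds above 0, and for GluN1Cre over WT 7 had folds below 0. By Cuffdiff 0 were called in these 2 comparisons, with 1 and 0 at an unadjusted p under 0.05. The median log2 folds of the excitatory markers, -0.16, 0.11 and -0.05, had the signs of the member medians. The part of excitatory neurons in the member folds was not tested. Oligodendrocyte, endothelial, choroid plexus and thalamic or hypothalamic markers had 0 called by Cuffdiff in any comparison. At an unadjusted p under 0.05 there were 2 endothelial models for GluN1 against WT and 1 for GluN1Cre against WT, and 1 oligodendrocyte model in each comparison with GluN1Cre.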
